A study of Mus musculus with 12 samples.

Results

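Genes of synaptic vesicle release and of the synaptic scaffold were followed through a neural differentiation of mouse embryonic stem cells (mESC). The set held 53 genes chosen by name: a probe belonged to it where the array's gene name, brought to the current symbol, was on a list of presynaptic release machinery and synaptic scaffolds, with receptors and channels left out. All 53 genes had probes, 96 of the 39429 on the array. For 52 of these genes a probe cleared the background in some group on each of its 3 arrays, and the brightest such probe stood for its gene among the 22319 genes tested. The 1 gene not tested, Syt2, was not well above background on any of the 12 arrays.

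RNA came from 4 groups of 3 samples each, all from Actin-eGFP C57BL/6 mESC that had been grown on fibroblast feeders, freed of feeders, kept as embryoid bodies for 4 days and selected in ITSFn medium for 6 days. Step 5 enriched and step 5 control cells are neuronal differentiation cultures, kept for 7 days without bFGF and with 200 µM ascorbic acid. Step 4 enriched and step 4 control cells are neural precursors, kept for 5 days with 10 ng/ml bFGF. Enriched cells were taken with magnetic beads against PSA-NCAM, a cell adhesion molecule with polysialic acid chains that migrating precursors and young neurons carry, after dead cells had been removed. Control cells had no enrichment. The labels do not say whether the enriched step 5 cells were taken before or after the 7 days. Nothing in them says that replicates came from separate differentiations, so the p-values measure the spread between these samples, which may be technical. Each sample was labelled with Cy5 and hybridised against the same kind of reference, mESC RNA in Cy3, with 0 dye swaps. Values are log2 ratios of Cy5 to Cy3, so a level of 0 means as bright as in mESC and 1 unit is a 2-fold change.

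A nerve terminal releases transmitter when a loaded vesicle fuses with the membrane of the active zone. Synapsins tie vesicles to each other, Rab proteins and the active zone proteins Rims, Unc13, Bassoon and Piccolo dock and prime them, synaptotagmins sense calcium, and the SNARE proteins on vesicle and membrane drive fusion under the control of complexins. Dynamin, amphiphysin and synaptojanin then retrieve the membrane. Neurexins and neuroligins bridge the cleft, and scaffolds of the Dlg, Shank, Homer and Dlgap families, or gephyrin at inhibitory synapses, hold the receptors on the other side.

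Between arrays of a group the log2 ratios over all tested genes correlated at 0.94 to 0.96 for step 5 enriched, 0.66 to 0.92 for step 5 control, 0.9 to 0.96 for step 4 enriched and 0.74 to 0.85 for step 4 control cells. Replicates 1, 2 and 3 lay on slides 1, 2 and 3, and slide 2 was read with another version of the scanner software. Among the 52 tested genes 35 had their lowest step 5 control value and 33 their lowest step 4 control value on slide 2, while 41 had their lowest step 4 enriched value in replicate 1. Ncam1, whose product carries the sorted epitope, was 1.67 ± 0.43 (SE) higher in enriched than in control cells at step 5 and 1.34 ± 0.43 higher at step 4. Pou5f1, the pluripotency factor Oct4, was lower by more: its log2 difference was -3.35 ± 0.48 at step 5 and -3.78 ± 0.48 at step 4. In control cells Pou5f1 lay at -0.69 ± 0.18 (SD, n = 3) at step 5 and -0.67 ± 0.04 at step 4 relative to mESC.

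**Figure D1:**
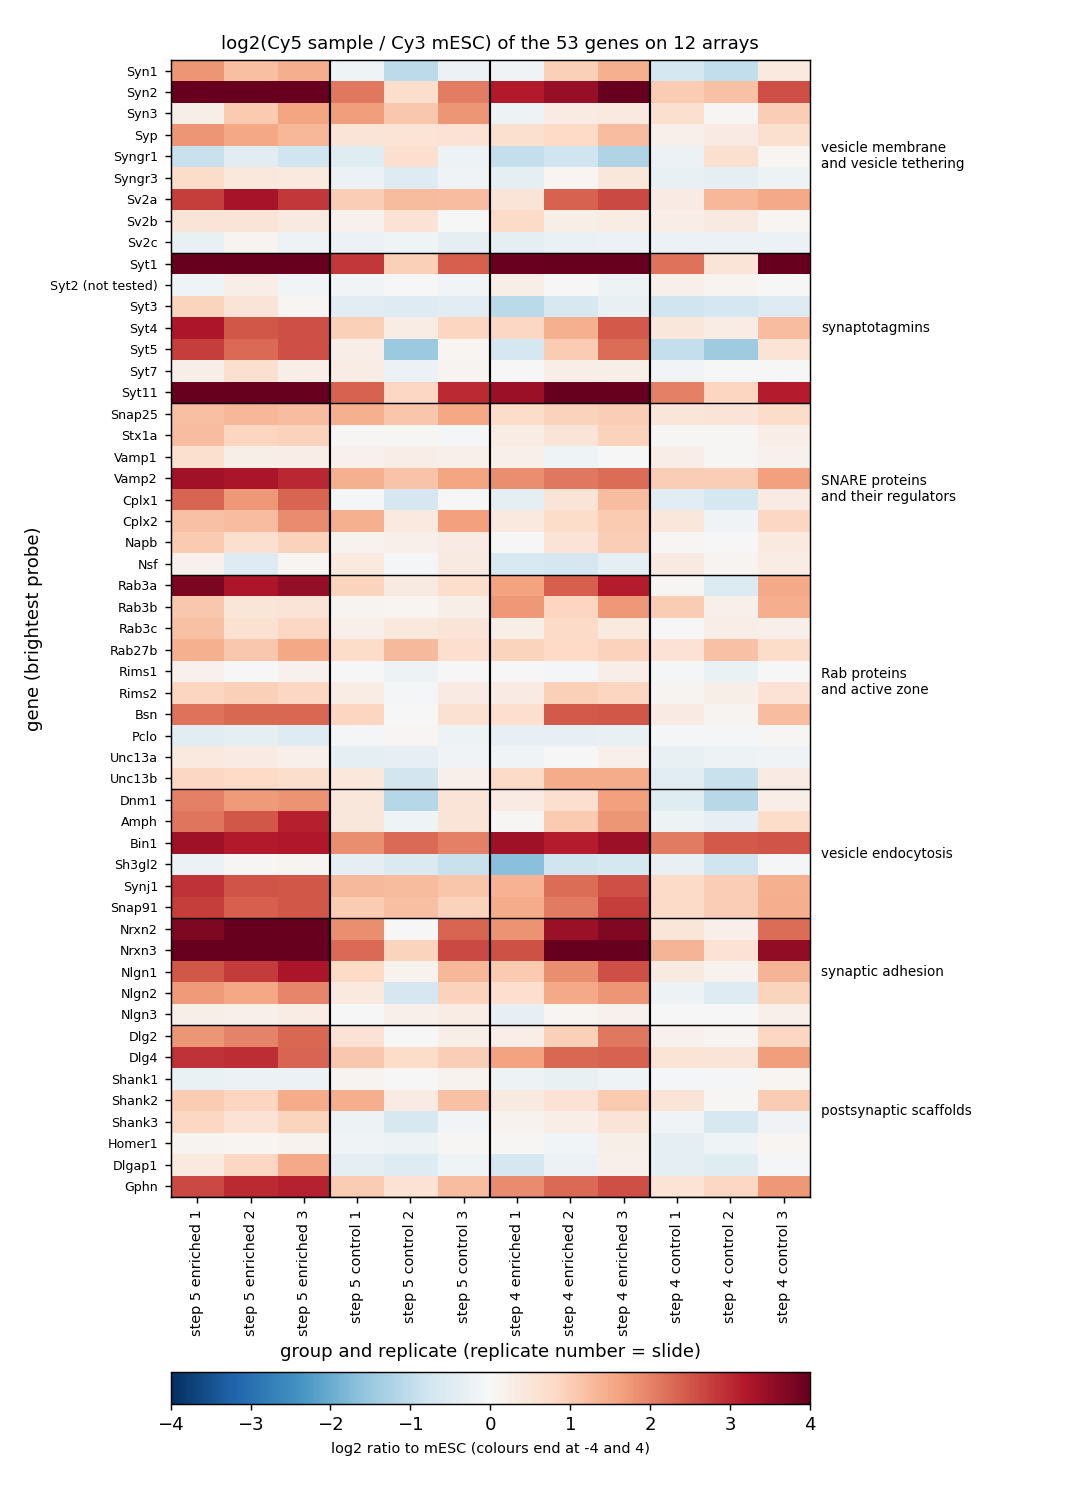
Log2 ratio of each sample to mESC for the 53 genes (rows, by role) on the 12 arrays (columns, by group and replicate). Syn2, Syt1, Syt11 and Nrxn3 are dark red on all 3 step 5 enriched arrays, while Pclo, Shank1, Sv2c and Homer1 stay near white everywhere.

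Synaptic genes were higher in enriched than in control cells at step 5. Of the 52 tested genes 33 rose and 2 fell (limma, Benjamini-Hochberg adjusted p under 0.05), where 20.3% of all genes tested rose and 20.2% fell. Among the 45 genes with a Cy5 signal well above background on all 12 arrays 28 rose, where 20% of all genes so filtered did. The median log2 difference was 1 over the 52 genes and -0.01 over all genes. Within slides the median over these genes was 1.12, 1 and 0.98 on slides 1, 2 and 3. In 37 of the 52 genes all 3 enriched arrays lay above all 3 control arrays and in 2 they lay below, where the groups separated in this way for 25.6% of all genes upward and 25.5% downward. In bulk RNA a smaller share of neurons and less RNA per neuron cannot be told apart.

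Synaptotagmins and adhesion molecules held the largest differences. Syt1, the fast calcium sensor of release, had log2 ratios of 5.42, 5.02 and 5.77 in step 5 enriched cells, against 2.82, 0.96 and 2.39 in step 5 control cells. All enriched arrays were high, the control array of slide 2 was the lowest, and the groups did not overlap. The difference was 3.35 ± 0.79 (SE; 10.2-fold, limma adjusted p = 0.00733), and it was 2.6, 4.06 and 3.38 within slides 1, 2 and 3. With the scanner software's own log ratios it was 2.53 and missed the threshold (adjusted p = 0.156). Syt5 stood at 2.76, 2.27 and 2.58 in enriched cells, against 0.25, -1.5 and 0.09 in control cells, a difference of 2.92 ± 0.74 (adjusted p = 0.0105). Syt11, which lacks calcium binding, stood at 4.29, 4.25 and 5.12 in enriched cells, against 2.35, 0.84 and 2.98 in control cells, a difference of 2.5 ± 0.63 (adjusted p = 0.00984). Of the 6 tested synaptotagmins 5 rose, Syt4 by 2.06 ± 0.4 and Syt3 by 0.96 ± 0.22 among them. Syt7 was dim: step 5 enriched cells had it well above background on 3 of 3 arrays and step 5 control cells on 0 of 3, and its difference did not pass (adjusted p = 0.114).

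The neurexins, presynaptic adhesion receptors, held large differences too. Nrxn3 had log2 ratios of 4.59, 4.87 and 5.2 in step 5 enriched cells, against 2.26, 0.88 and 2.63 in control cells. The enriched arrays were all above the control arrays, by 2.96 ± 0.78 (7.81-fold, limma adjusted p = 0.0123), although with the scanner software's log ratios a difference of 3.04 had an adjusted p of 0.0528. Nrxn2 had 3.72, 4.06 and 4.39 in enriched cells, against 1.87, -0.03 and 2.33 in control cells, a difference of 2.67 ± 0.72 (adjusted p = 0.0137). Again the slide 2 control array was far below the others, and the difference within that slide was 4.09 against 1.85 and 2.06 on slides 1 and 3. Their postsynaptic partners Nlgn1 and Nlgn2 rose by 2.08 ± 0.45 and 1.54 ± 0.45. Nlgn2 lost its call without replicate 2 of the step 5 control cells (1.1, adjusted p = 0.0697) and without replicate 3 of the step 5 enriched cells (1.43, adjusted p = 0.0665). The brightest Nlgn3 probe gave 0.07 ± 0.14.

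Among vesicle membrane and tethering genes 5 of 9 rose. Syn2, a synapsin, had log2 ratios of 4.05, 4.11 and 4.48 in step 5 enriched cells, against 2.11, 0.69 and 2.05 in control cells. The groups were far apart, by 2.59 ± 0.47 (6.04-fold, limma adjusted p = 0.00198). Syn1, its closest relative, rose by 1.96 ± 0.45, the vesicle glycoprotein gene Sv2a by 1.81 ± 0.49, synaptophysin (Syp) by 1 ± 0.17 and Syngr3, a synaptogyrin, by 0.81 ± 0.2. The other 4, Syn3, Syngr1, Sv2b and Sv2c, lay between -0.7 and 0.23 and did not pass.

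Of the SNARE proteins and their regulators 4 of 8 rose. Cplx1, the complexin that clamps and then promotes fusion, had 2.33, 1.74 and 2.34 in step 5 enriched cells, against -0.06, -0.67 and -0.03 in control cells. Its difference of 2.39 ± 0.39 (5.23-fold, limma adjusted p = 0.00115) was nearly the same on each slide, at 2.38, 2.4 and 2.38. Vamp2, the main vesicle SNARE of neurons, rose by 1.84 ± 0.2 with the smallest adjusted p of the set, 0.000149. Stx1a, its partner on the membrane, rose by 1 ± 0.16 and Napb, which helps to take spent SNARE complexes apart, by 0.65 ± 0.22. Napb lost its call when any array of step 5 other than replicate 2 of the enriched cells was left out, with adjusted p-values of 0.0573 to 0.113. It also lost its call without replicate 2 of the step 4 enriched cells (adjusted p = 0.0509). In the fit over all tested probes a second, dimmer Napb probe gave 1.73 ± 0.35 (limma adjusted p = 0.00316). Snap25, the third SNARE of the fusion complex, did not pass: it had 1.2, 1.34 and 1.24 in enriched cells, against 1.41, 1.12 and 1.56 in control cells. Those ranges overlapped and the difference was -0.1 ± 0.13, with a 95% interval of -0.4 to 0.2.

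Rab and active zone genes were the most mixed class, with 5 of 10 higher and 1 lower. Rab3a, the vesicle Rab of neurons, had log2 ratios of 3.76, 3.23 and 3.52 in step 5 enriched cells, against 0.89, 0.36 and 0.71 in control cells. The difference of 2.85 ± 0.5 (7.21-fold, limma adjusted p = 0.00157) held within each slide at 2.87, 2.86 and 2.81. Bsn (Bassoon) rose by 1.76 ± 0.46, Rims2 by 0.69 ± 0.18, Unc13a by 0.59 ± 0.12 and Rab3c by 0.49 ± 0.18. Rab3c was close to the threshold (adjusted p = 0.0462) and lost its call with the slide as a block (adjusted p = 0.0554), and of the 12 fits that leave out 1 array it kept the call in 3. Rims1, Rab3b, Rab27b and Unc13b lay between 0.17 and 0.81 and did not pass. Pclo (Piccolo), the sister scaffold of Bassoon, was lower by its brightest probe, at -0.44, -0.37 and -0.51 in enriched cells, against -0.09, 0.09 and -0.19 in control cells (-0.37 ± 0.1, adjusted p = 0.0117). With median normalization in place of loess it had -0.12 (adjusted p = 0.453).

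Endocytosis genes moved together, with 5 of 6 higher. Amph, or amphiphysin, which brings dynamin to the neck of a budding vesicle, had 2.13, 2.47 and 3.1 in step 5 enriched cells, against 0.44, -0.18 and 0.53 in control cells. The groups did not overlap and differed by 2.3 ± 0.44 (4.94-fold, limma adjusted p = 0.00257). Dnm1 (dynamin 1) rose by 1.89 ± 0.49, the clathrin adaptor gene Snap91 by 1.48 ± 0.28, Synj1 by 1.41 ± 0.27 and Bin1, the widely expressed amphiphysin relative, by 1.21 ± 0.15. Sh3gl2 (endophilin A1) had 0.6 ± 0.27 (adjusted p = 0.103).

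Of the 8 postsynaptic scaffolds 5 rose and 1 fell. Gphn, the gephyrin of inhibitory synapses, had log2 ratios of 2.63, 2.97 and 3.09 in step 5 enriched cells, against 1, 0.59 and 1.24 in control cells. It differed by 1.95 ± 0.3 (3.88-fold, limma adjusted p = 0.00081). Dlg4, which codes for PSD-95 of excitatory synapses, rose by 1.8 ± 0.32, Dlg2 by 1.74 ± 0.39, Dlgap1 by 1.27 ± 0.29 and Shank3 by 1.09 ± 0.18. Shank1 fell by 0.33 ± 0.09 by its brightest probe (adjusted p = 0.0126), and with median normalization its difference of -0.07 did not pass (adjusted p = 0.633). Homer1 and Shank2 differed by 0.2 ± 0.13 and 0.12 ± 0.33 and did not pass. Bsn, Unc13a, Nlgn1, Dlg2 and Dlgap1 were well above background on 3 of 3 step 5 enriched arrays and on 2 of 3 step 5 control arrays. Their probes entered the test through enriched cells, where they are high, so their calls add no support to the count.

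**Figure D2:**
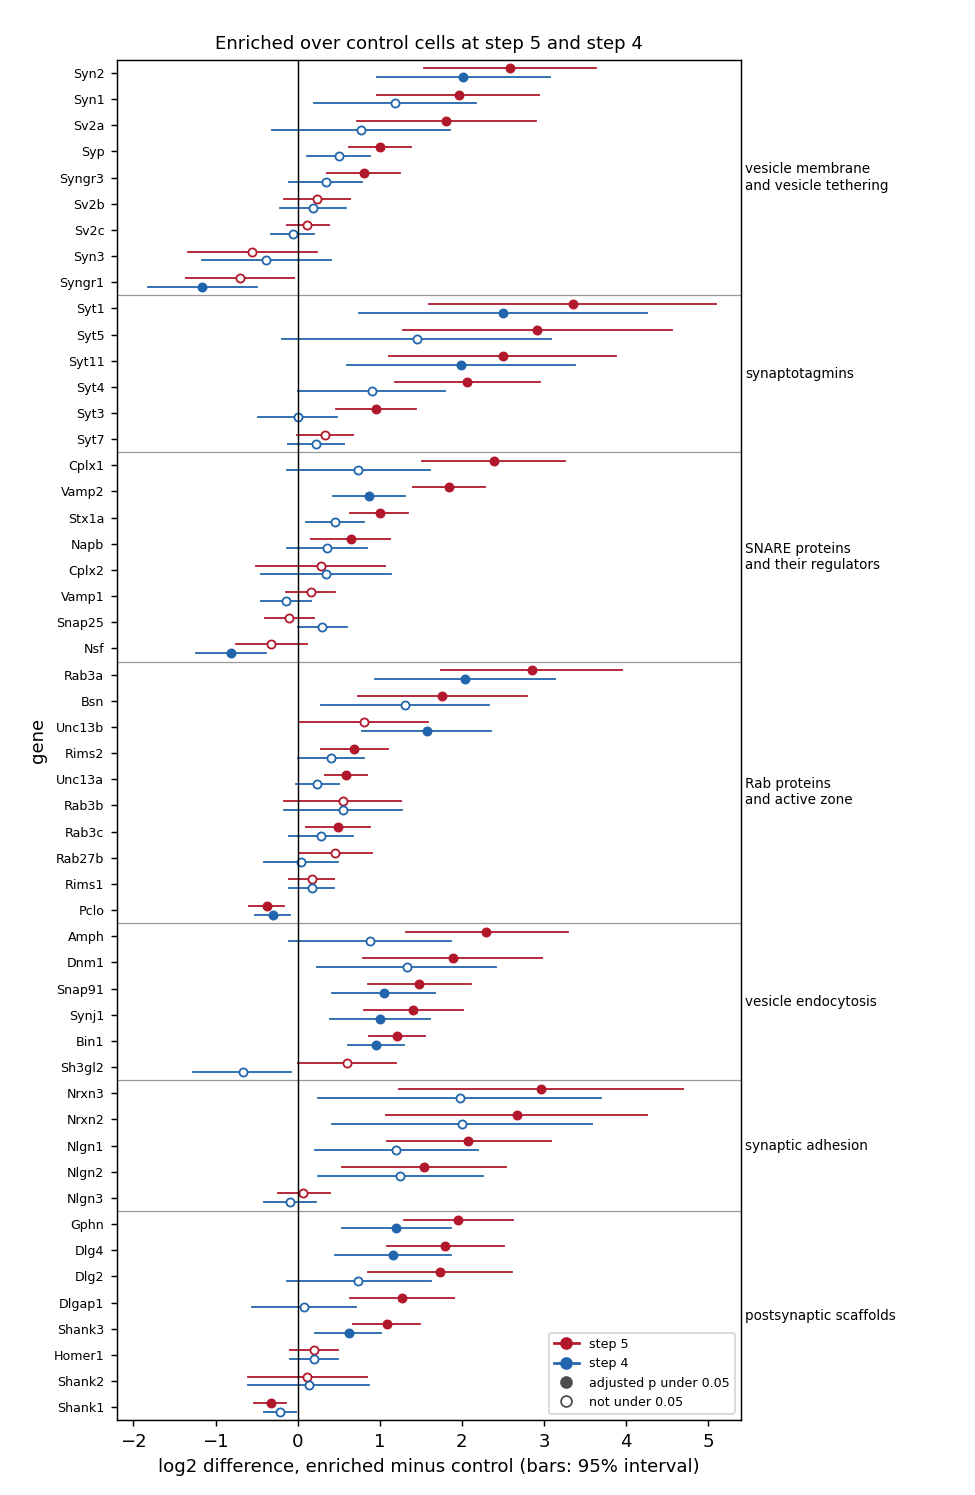
Log2 difference of enriched minus control cells for the 52 tested genes, ordered by size within each class, at step 5 (red) and step 4 (blue), with 95% intervals from limma; filled points passed the adjusted threshold. Of the 52 genes 33 were higher at step 5 and 12 at step 4.

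For 21 genes more than 1 probe was tested, and for 13 of them some probes passed at step 5 and others did not. For 6 genes, Dlgap1, Napb, Nrxn2, Pclo, Syn2 and Syt3, all probes passed, those of Pclo not in 1 direction. For 2 genes, Homer1 and Sh3gl2, none did. Some of the Dlgap1 and Pclo probes entered the test only through enriched cells, where they are high, so their calls add no support. Shares over all genes with more than 1 tested probe are not given here. In the fit over all 28221 tested probes Pclo alone had probes that passed in opposite directions. Its brightest probe gave -0.37, while probes at higher positions on chromosome 5 gave 2.27 ± 0.53 (limma adjusted p = 0.00679) and 1.88 ± 0.39 (adjusted p = 0.00407). The probe that gave 1.88 entered the test only through enriched cells, where it is high, so its call adds no support. The probes that gave -0.37 and 2.27 are shown because they passed in opposite directions. Bases in a stretch of 16 that also lies in a probe of another named gene are in capitals, and positions are on mm9.
Pclo, brightest, chr5:14682209-14682268, plus strand, bases 1 to 30: aacccctccctgatgacataagtccacaga
Pclo, next, chr5:14795934-14795993, plus strand, bases 25 to 54: atatccaagtgccTGTGTAATAAATAAAGT
Homer1 had 5 probes, for the short (S) and the long (L) transcript variants, and all of them lay between -0.09 and 0.2.

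**Figure D3:**
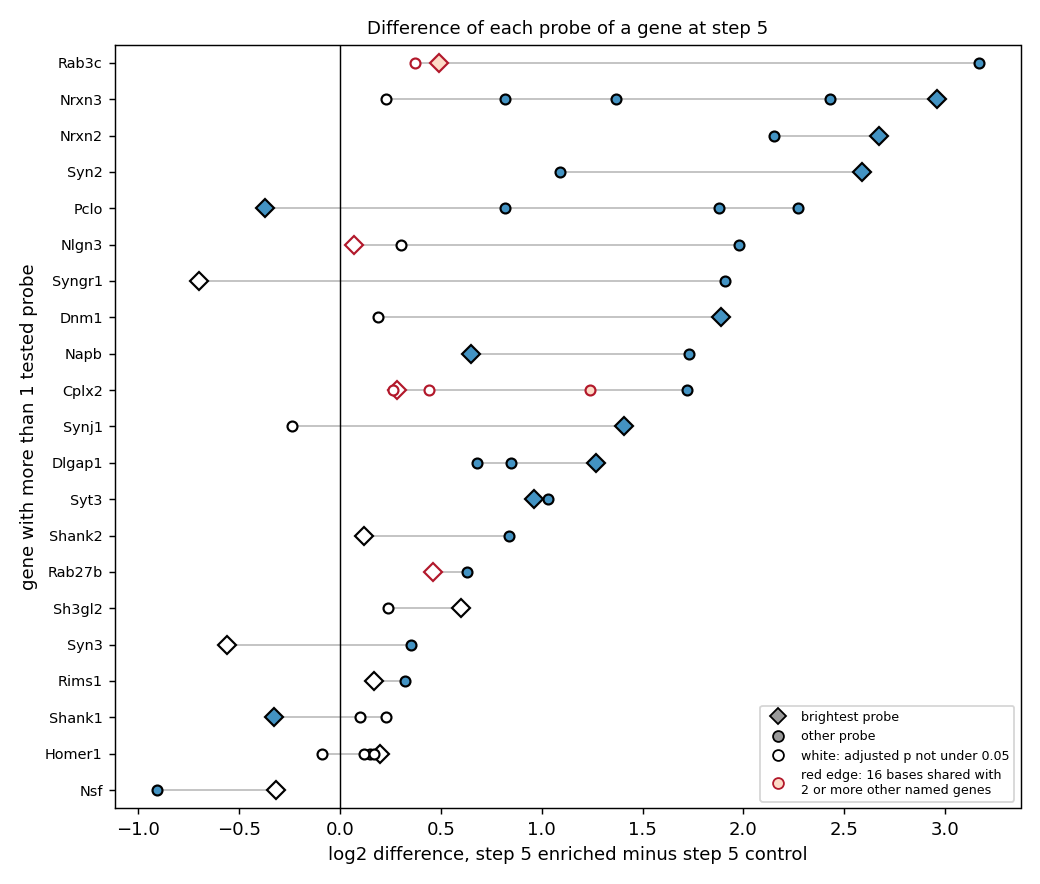
Log2 difference at step 5 (enriched minus control) of every tested probe of the 21 genes with more than 1 tested probe; diamonds are the brightest probe, filled symbols passed the adjusted threshold, and red edges mark probes that share 16 bases with 2 or more other named genes. The brightest probes of Pclo, Nlgn3, Syngr1 and Cplx2 sit at or near the left of their gene's range, those of Nrxn3, Dnm1 and Synj1 at the right.

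The probes were therefore read as sequences. A probe of 60 bases was called shared if any stretch of 16 of its bases, on either strand, also lay in probes of 2 or more other named genes, a rule set after these values were seen. This held for 4.95% of all probes and for 9 of the 96 probes here, those of Cplx2, Rab3c, Nlgn3, Rab27b and Snap25. Shared probes were brighter as a class, with a median log2 intensity of 10.7 against 8.6 for the rest, and had a median absolute step 5 difference of 0.28 against 0.38. The stretches below are 30 bases of the brightest probe and of the brightest probe that was not shared, for genes where the choice changes the result, with bases in a stretch shared with any other named gene in capitals and positions of the whole probe on mm9.
Cplx2, brightest, chr13:108816800-108816859, plus strand, bases 1 to 30: AGGAGGAGGAGGAGGAGGAGGAGGAGGAGG
Cplx2, not shared, chr13:54485200-54485259, plus strand, bases 1 to 30: tccccactttgtatgatgcaaatgctaaga
Rab3c, brightest, chr13:110850524-110850583, minus strand, bases 1 to 30: atgtTCTACAGAGTGAGTTCTAggatagca
Rab3c, not shared, chr13:110844454-110844513, minus strand, bases 1 to 30: ctgttaggtatttagtttgtgtgtgaattc
Snap25, the only probe, chr2:136607709-136607768, plus strand, bases 1 to 30: CACACACACACACACACACAAAgtggattt
The brightest Cplx2 probe opens with a run of AGG triplets, and the array's annotation puts it far from the probe that is not shared. The Snap25 probe opens with a CA repeat and shares 16 bases with probes of 82 other named genes, and no other probe of this gene was on the array.

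The probes that were not shared differed more. Cplx2 had 4.57, 4.41 and 4.8 in step 5 enriched cells with that probe, against 3.6, 1.88 and 3.13 in control cells, a difference of 1.72 ± 0.48 (limma adjusted p = 0.0159). With the brightest probe it had 1.16, 1.23 and 1.88 in enriched cells, against 1.41, 0.38 and 1.65 in control cells, and the groups overlapped (0.28 ± 0.36). Another shared Cplx2 probe did pass, at 1.24 ± 0.37 (limma adjusted p = 0.0225). The remaining shared probes of this gene gave 0.26 ± 0.31 and 0.44 ± 0.35 and did not pass. Rab3c, a Rab of synaptic vesicles, had 4.2, 5.12 and 4.96 in enriched cells, against 2.1, 0.47 and 2.19 in control cells, a difference of 3.17 ± 0.92 (adjusted p = 0.0194) that is larger than the 0.49 of the brightest probe. The Cy3 signal of that Rab3c probe was not well above background on any array, whereas the brightest probe was well above it in mESC on all 12.

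Nlgn3 had 2.59, 2.76 and 3.16 in step 5 enriched cells, against 1.2, 0.02 and 1.34 in control cells, a difference of 1.98 ± 0.47 (limma adjusted p = 0.00772), with 2 of 3 control arrays well above background. This probe entered the test only through enriched cells, where it is high, so its call adds no support. Its Cy3 signal was not well above background on any array. Rab27b passed with its other probe (0.63 ± 0.13, adjusted p = 0.00378) and not with the brightest (0.46 ± 0.2). With shared probes left out for all genes, a setting chosen after seeing the data, 36 of the 51 genes left were higher at step 5. Of all genes 20.9% were higher under this setting.

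The 2 tested probes of Syngr1 (synaptogyrin 1) differed in sign at step 5. The brighter Syngr1 probe is annotated to variant 1b and the other to variant 1a, and neither shared 16 bases with another named gene.
Syngr1, variant 1b, chr15:79941040-79941099, plus strand, bases 1 to 30: atgtgtacttcccgcagatcagcagtgtca
Syngr1, variant 1a, chr15:79949191-79949250, plus strand, bases 1 to 30: agagatcctttgagagaatcctatttcatc
The variant 1a probe had 1.95, 1.88 and 1.54 in step 5 enriched cells, against -0.16, -0.41 and 0.2 in step 5 control cells, a difference of 1.91 ± 0.39 (limma adjusted p = 0.00361). The variant 1b probe had -0.89, -0.42 and -0.8 in enriched cells, against -0.49, 0.66 and -0.19 in control cells, a difference of -0.7 ± 0.3 (adjusted p = 0.0856). At step 4 the 1b probe fell by 1.16 ± 0.3 (adjusted p = 0.0156) and the 1a probe gave 0.52 ± 0.39 (adjusted p = 0.346). The difference between the 2 probes was not tested, and with 1 probe per variant, variant and probe cannot be told apart.

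**Figure D4:**
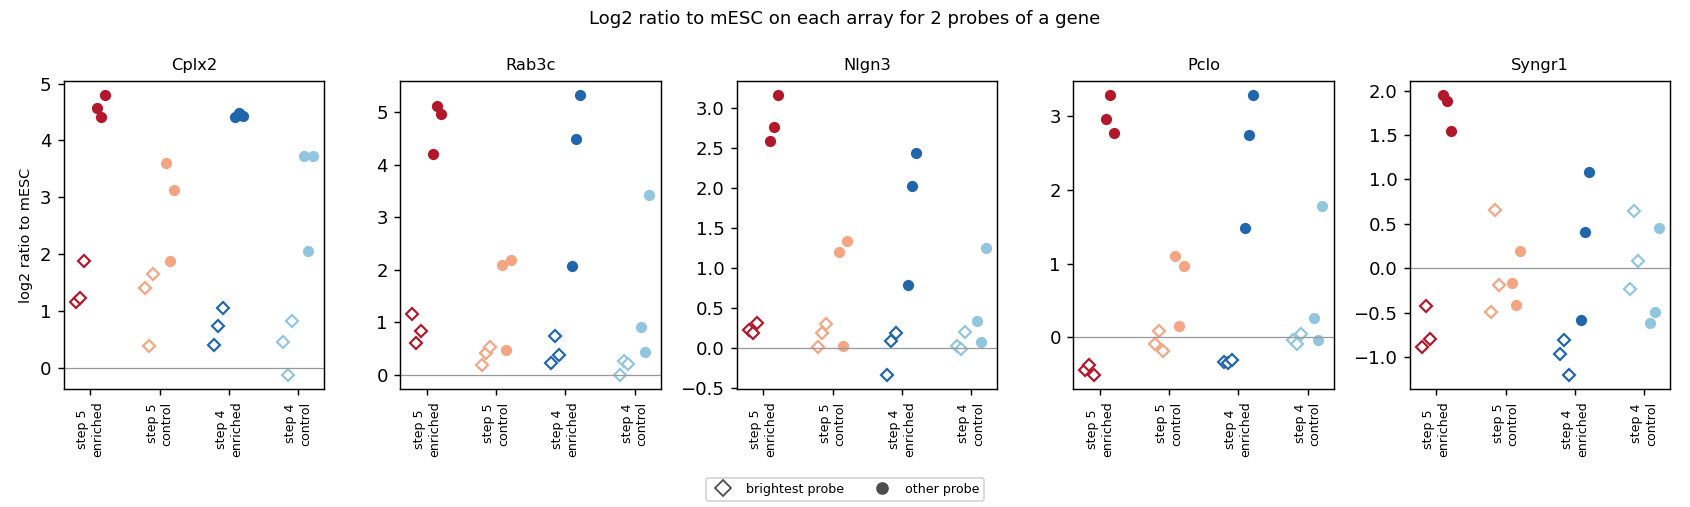
Log2 ratio to mESC on each of the 12 arrays for the brightest probe (open diamonds) and the brightest other probe that is not shared (filled circles) of 5 genes. For Pclo the circles of step 5 enriched cells lie at 2.77 to 3.29 and the diamonds at -0.51 to -0.37.

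Probes disagreed in further genes. The second Dnm1 probe gave 0.19 ± 0.12 and the second Synj1 probe, annotated to variant 2, -0.24 ± 0.24, where the brightest probes gave 1.89 and 1.41. Shank2 and Syn3 passed with a dimmer probe (0.84 ± 0.16 and 0.35 ± 0.09) and not with the brightest. Both dimmer probes entered the test only through step 5 enriched cells, where they are high, so their calls add no support. Nsf, the ATPase that takes SNARE complexes apart, had 0.17, -0.52 and 0.08 in step 5 enriched cells, against 0.4, -0.07 and 0.36 in control cells with its brightest probe (-0.32 ± 0.19), and a second probe fell by 0.91 ± 0.14 (limma adjusted p = 0.000827). The 2 other Shank1 probes gave 0.23 ± 0.14 and 0.1 ± 0.09, so that the fall of its brightest probe was not met in them, and the mean over its probes differed by 0.

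At step 4 fewer synaptic genes passed. Of the 52 genes 12 rose and 3 fell, where 15% of all genes rose and 16.2% fell, and the median log2 difference was 0.53 against 0.01 over all genes. With the replicate number, and so the slide, as a block 21 genes were higher and 3 lower. Over all 22319 genes 4430 (19.8%) were then higher and 4336 lower. Within slides the median over the 52 genes was 0.24, 0.69 and 0.61 on slides 1, 2 and 3. The count rested on single arrays: it was 29 without replicate 1 of the step 4 enriched cells, 20 without replicate 3 of the step 4 control cells, 7 and 5 without control replicates 1 and 2, and 6 and 5 without enriched replicates 2 and 3. Of all genes 15.6% and 14.3% were higher in the first 2 of these fits, and 7.85% to 10.2% in the others. Of the 15 calls, 5 were kept under every alternative tried: Syn2, Vamp2, Unc13b and Bin1 upward and Nsf downward.

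Among the genes past the threshold the largest differences were those of Syt1, Rab3a, Syn2 and Syt11. Syt1 had 3.95, 4.76 and 5.51 in step 4 enriched cells, against 2.16, 0.51 and 4.05 in step 4 control cells. The groups overlapped at their edges and the difference was 2.5 ± 0.79 (5.66-fold, limma adjusted p = 0.0356), with 1.79, 4.25 and 1.47 within slides 1, 2 and 3. With the scanner software's log ratios it was 2.44 and did not pass (adjusted p = 0.19). Rab3a had 1.61, 2.39 and 3.13 in enriched cells, against 0.04, -0.56 and 1.53 in control cells, a difference of 2.04 ± 0.5 (adjusted p = 0.012). Syn2 had 3.17, 3.48 and 4.17 in enriched cells, against 1.01, 1.17 and 2.58 in control cells, a difference of 2.02 ± 0.47 (adjusted p = 0.0103). In each of these genes replicate 3 was the highest array of its group.

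Syt11 had 3.42, 4.13 and 4.42 in step 4 enriched cells, against 2.02, 0.85 and 3.13 in control cells, a difference of 1.99 ± 0.63 (limma adjusted p = 0.0348). Unc13b, a priming factor, had 0.75, 1.47 and 1.48 in enriched cells, against -0.43, -0.89 and 0.32 in control cells, a difference of 1.57 ± 0.35 (2.96-fold, adjusted p = 0.00847). It passed at step 4 and not at step 5, where it had 0.81 ± 0.35 (adjusted p = 0.0915), and the difference of these effects, -0.76, did not pass. Gphn had 1.88, 2.25 and 2.58 in enriched cells, against 0.56, 0.82 and 1.72 in control cells (1.2 ± 0.3, adjusted p = 0.0135), and Dlg4 had 1.6, 2.29 and 2.36 in enriched cells, against 0.55, 0.53 and 1.68 in control cells (1.16 ± 0.32, adjusted p = 0.0203). Vamp2, Bin1, Synj1, Snap91 and Shank3 rose by 0.62 to 1.05.

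The 3 genes that fell at step 4 were Syngr1, Nsf and Pclo. Syngr1, by the variant 1b probe, had -0.96, -0.81 and -1.2 in step 4 enriched cells, against -0.23, 0.65 and 0.08 in control cells (-1.16 ± 0.3, limma adjusted p = 0.0159). Nsf had -0.6, -0.68 and -0.39 in enriched cells, against 0.35, 0.1 and 0.31 in control cells (-0.81 ± 0.19, adjusted p = 0.0115), and its groups did not overlap. The Pclo fall of 0.3 was again that of the brightest probe, and its 2 probes named above rose by 1.84 ± 0.53 and 1.16 ± 0.39. The probe with 1.16 is the one that entered the test only through enriched cells.

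The adhesion genes held large differences at step 4 but 0 of 5 passed, with a median of 1.25. Nrxn2 had 2 ± 0.72 (limma adjusted p = 0.0558) and Nrxn3 1.98 ± 0.78 (adjusted p = 0.0773). With the slide as a block Nrxn2, Nrxn3, Nlgn1 and Nlgn2 passed (adjusted p = 0.0221, 0.0229, 0.00634 and 0.0151), as did Syn1, Syp, Bsn, Dnm1 and Amph. The probes of Nlgn1 and Bsn entered the test only through enriched cells, so these 2 calls add no support.

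Between step 5 and step 4 enriched cells few synaptic genes passed. Of the 52 genes 5 rose and 0 fell, where 3.96% of all genes rose and 2.46% fell. With the slide as a block 10 rose, where 6.54% of all genes did. The median difference was 0.49 against 0 over all genes, and 47 of the 52 genes lay above 0. All 3 step 5 arrays lay above all 3 step 4 arrays for 20 genes and below them for 1, where this held for 14.4% of all genes upward and 14.3% downward. Within slides the median was 0.94, 0.36 and 0.21 on slides 1, 2 and 3, so most of it came from slide 1, whose step 4 enriched array was the low one. The count was 9 without replicate 3 of the step 4 enriched cells, 2 without replicate 1 and 1 without replicate 2, and 2 to 3 without any 1 of the step 5 enriched arrays. It was 3 without replicate 1 or 3 of either control group. Of all genes 2.51%, 2.89% and 1.35% rose without replicates 3, 1 and 2 of the step 4 enriched cells. That share was 1.89% to 3.32% without a step 5 enriched array, and 3.16% to 3.55% in the named fits without a control array.

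The 5 genes were Cplx1, Syt3, Dlgap1, Vamp2 and Sh3gl2. Cplx1 had 2.33, 1.74 and 2.34 in step 5 enriched cells, against -0.36, 0.52 and 1.22 in step 4 enriched cells, a difference of 1.67 ± 0.39 (3.19-fold, limma adjusted p = 0.0326). Syt3, a synaptotagmin with high calcium affinity, had 0.88, 0.5 and 0.09 at step 5, against -1.07, -0.64 and -0.3 at step 4 (1.16 ± 0.22, adjusted p = 0.014). Dlgap1, which links Dlg4 to the Shank proteins, had 0.38, 0.84 and 1.52 at step 5, against -0.66, -0.24 and 0.2 at step 4 (1.15 ± 0.29, adjusted p = 0.0413), and its slides gave 1.04, 1.08 and 1.33. Its probe entered the test only through step 5 enriched cells, where it was well above background on 3 of 3 arrays, against 2 of 3 in step 4 enriched cells, so its call is no independent support. These 3 genes did not overlap between the steps.

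Vamp2 had 3.36, 3.26 and 3.03 in step 5 enriched cells, against 1.86, 2.12 and 2.24 in step 4 enriched cells (1.14 ± 0.2, limma adjusted p = 0.0105), and it kept its call under all alternatives tried. Sh3gl2 had -0.22, 0.05 and 0.1 at step 5, against -1.68, -0.79 and -0.71 at step 4 (1.03 ± 0.27, adjusted p = 0.0494), close to the threshold. Syp (0.65 ± 0.17) and Amph (1.61 ± 0.44) missed it at 0.0523 and 0.0584 and passed with the slide as a block. Syt1 and Syn2, high at both steps, differed by 0.67 ± 0.79 and 0.61 ± 0.47.

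In control cells 0 of the 52 genes passed between the steps in limma, nor did any other gene (0% in each direction). At an unadjusted p under 0.05 there were 3, against 1918 of all 22319 genes, and with the slide as a block the count was 0. Without replicate 2 of the step 5 control cells 1 gene passed, where 1.63% of all genes were higher. The median difference was 0.05. In 3 genes all step 5 control arrays lay above all step 4 control arrays and in 0 they lay below, where this held for 7.32% and 5.22% of all genes. The smallest p was that of Snap25, with 1.41, 1.12 and 1.56 in step 5 control cells, against 0.48, 0.5 and 0.74 in step 4 control cells. That difference of 0.79 ± 0.13 had an adjusted p of 0.147, and its probe is the shared one described above.

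Whether the enrichment effect itself differed between the steps was tested as an interaction. Of the 52 genes 0 passed in limma, as did 0% of all genes, and at an unadjusted p under 0.05 there were 7 of the 52, against 1574 of all 22319. The smallest p-values were those of Vamp2 (0.97 ± 0.28, adjusted p = 0.426), Sh3gl2 (1.27 ± 0.38, adjusted p = 0.448) and Syt3 (0.96 ± 0.31, adjusted p = 0.504). The 95% intervals ran over 0.34 to 1.6, 0.43 to 2.12 and 0.27 to 1.64. The larger count at step 5 than at step 4 is therefore no tested difference between the steps, and the median of the differences was 0.46 over the 52 genes against -0.01 over all.

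Relative to mESC 43 of the 52 genes were higher and 3 lower in step 5 enriched cells, where 38.3% of all genes were higher and 33% lower. In step 5 control cells 19 were higher and 4 lower, where 25.6% and 19% of all genes were. In step 4 enriched cells 32 were higher and 7 lower (35.4% and 31.5% of all genes), and in step 4 control cells 15 were higher and 1 lower (21.4% and 17.4%). The mESC channel is 1 reference with no spread of its own, and without a dye swap a dye effect of a probe stays in these ratios. Median normalization in place of loess raised the median of all genes to 0.3 in both control groups and the counts there to 29 of 52 each. Since all genes shifted, this rise in the counts is not read as a result about the 52 genes.

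Some probes were dim in mESC. With the brightest probe of each gene, the Cy3 signal of Nrxn3, Nlgn1, Dlg2, Syt4, Sv2b and Syt7 was not well above background on any of 12 arrays, so that these ratios are bounds. Their probes entered the test only through the Cy5 signal of the cell groups, so their calls add no support to the counts over mESC. A dimmer probe of Nrxn3 and one of Dlg2 had a Cy3 signal well above background on 1 array. Nrxn3 was at least 29.6-fold above mESC in step 5 enriched cells, at least 3.67-fold in step 5 control cells, at least 14.1-fold in step 4 enriched cells and at least 3.44-fold in step 4 control cells. Nlgn1 was at least 7.18-fold and Syt4 at least 6.81-fold above mESC in step 5 enriched cells, against at least 1.59-fold and 1.63-fold in step 5 control cells. Dlg2 was at least 4.06-fold above mESC in step 5 enriched cells and Sv2b at least 1.39-fold. Syt1 had a measured mESC signal on 4 of 12 arrays only.

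Other genes were bright in mESC too. Bin1 lay at 3.26 ± 0.13 (SD, n = 3) in step 5 enriched cells, 2.04 ± 0.2 in step 5 control cells, 3.31 ± 0.16 in step 4 enriched cells and 2.36 ± 0.24 in step 4 control cells, so that it was above mESC in every group and its step 5 and step 4 levels did not differ beyond their spread in enriched cells. Syngr1 (variant 1b), Pclo and Shank1, all by their brightest probe, were the 3 below mESC in step 5 enriched cells, at -0.7 ± 0.25, -0.44 ± 0.07 and -0.25 ± 0.02.

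Markers of cell types moved beside these genes. Neuron markers had a median log2 ratio per array of 2.86, 2.6 and 2.78 in step 5 enriched cells, against 1.26, 0.41 and 1.24 in step 5 control cells. Of them 13 of 15 rose, where 20.3% of all genes did. At step 4 neuron markers had 1.22, 3.55 and 3.58 in enriched cells, against 1.58, 0.73 and 2.4 in control cells. There 2 of 15 rose, where 15% of all genes did. The synaptic genes had medians of 1.22, 1.15 and 1.5 in step 5 enriched cells, against 0.41, 0.11 and 0.44 in step 5 control cells, and of 0.33, 0.8 and 1.14 in step 4 enriched cells, against 0.14, 0.05 and 0.61 in step 4 control cells. Both lists were lowest on the same arrays of step 5 control, step 4 enriched and step 4 control cells. Among neuron markers Tubb3, a neuronal tubulin, rose by 2.7 ± 0.94, Map2 by 2.98 ± 0.71 and Dcx by 3.4 ± 0.82 at step 5 (limma adjusted p = 0.042, 0.00757 and 0.00832), and between step 5 and step 4 enriched cells they differed by 0.07, 0.25 and 0.12.

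Markers of other lineages are set beside all genes, of which 20.3% rose and 20.2% fell at step 5. Astrocyte markers rose at step 5 for 6 of 8 genes (median 2.19) and oligodendrocyte lineage markers for 5 of 9 (median 1.82), with levels of 3.45 to 4.14 and 1.51 to 2.2 in enriched cells, against 0.44 to 2.01 and 0.17 to 1.6 in control cells. Between step 5 and step 4 enriched cells 4 of 8 astrocyte and 4 of 9 oligodendrocyte markers rose, and 0 of 15 neuron markers did. Of all genes 3.96% rose there. Pluripotency markers were lower for 10 of 10 genes at both steps, where 16.2% of all genes fell at step 4. Mesenchyme markers lay at 5.13 to 5.63 in step 5 enriched cells, against 3.51 to 6.1 in step 5 control cells. At step 5 neural stem cell markers rose for 5 of 10 genes and endoderm markers fell for 3 of 9. Of 6 endothelium and blood markers 1 rose and 1 fell, which is near the shares of all genes. By the filter every tested gene cleared the background in some group, and 6 of the 8 listed endothelium and blood genes were tested. The part of these markers in the differences of the synaptic genes was not tested.

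**Figure D5:**
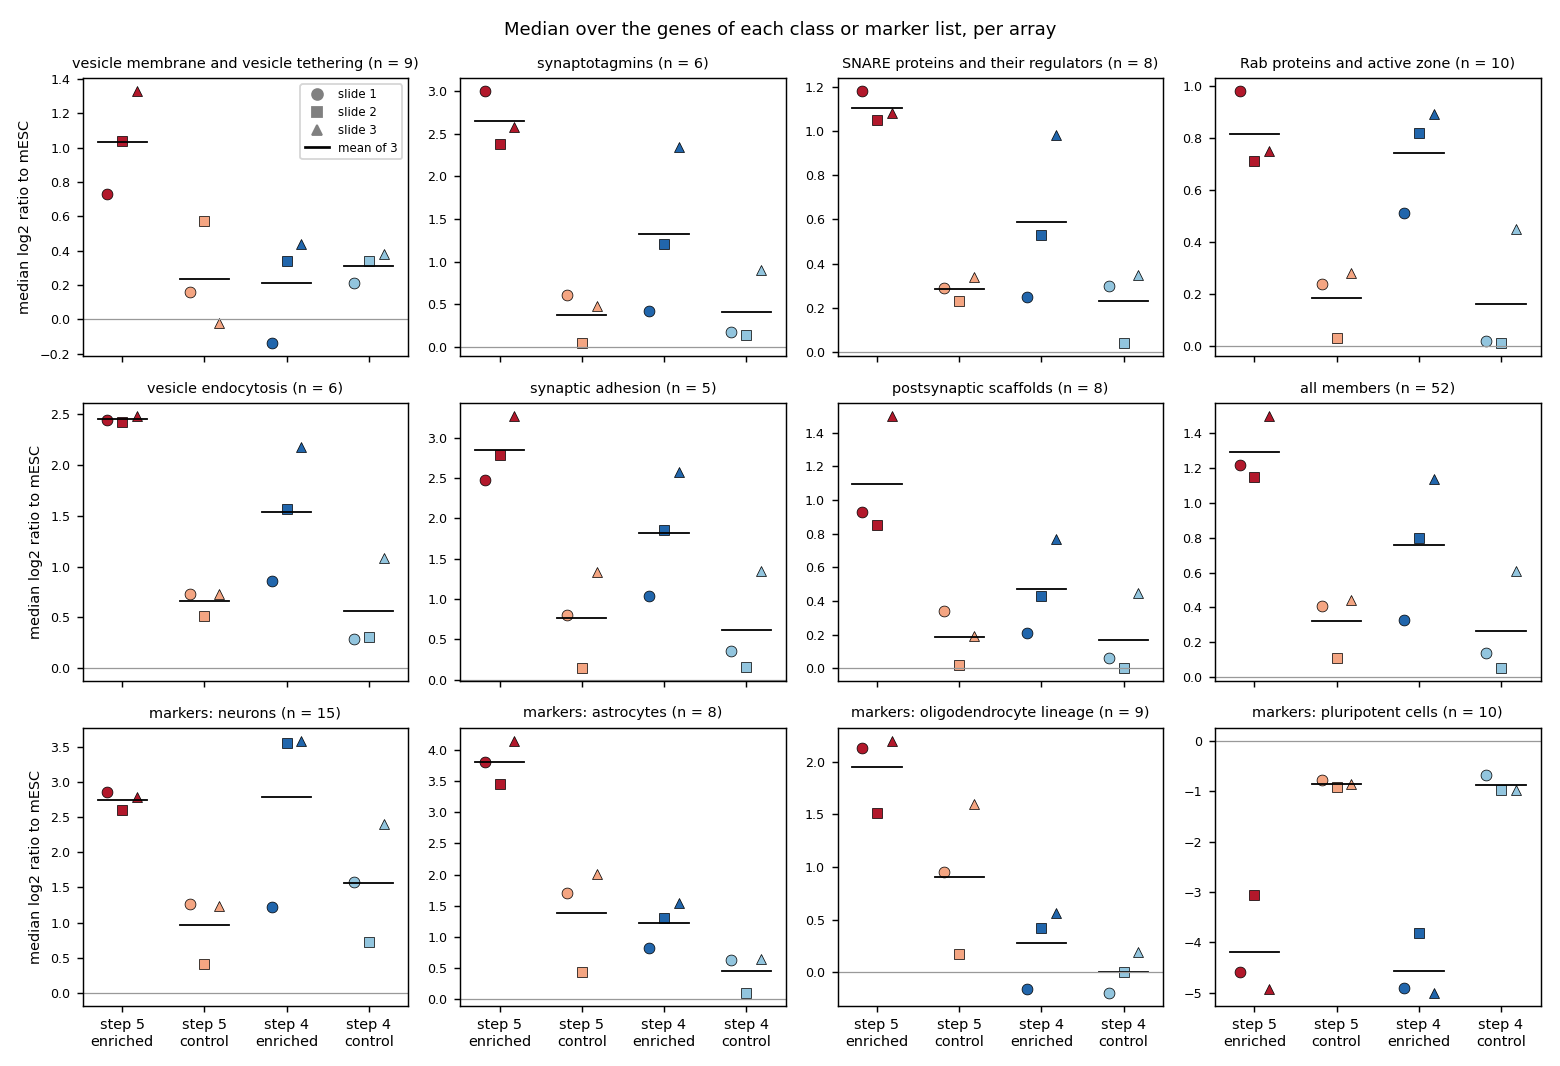
Median log2 ratio to mESC over the genes of each role class, all tested synaptic genes and 4 marker lists, per array (symbols show the slide, bars the mean of 3 arrays). All 7 classes have their highest group mean in step 5 enriched cells, and neuron markers in step 4 enriched replicates 2 and 3, at 3.55 and 3.58, lie above the step 5 enriched arrays.

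The wider pathway was followed with further lists of release and scaffold genes. Of 60 other release and recycling genes 32 rose and 3 fell at step 5 (median 0.46), where 20.3% and 20.2% of all genes did. In the step 4 comparison 18 rose and 6 fell, where 15% and 16.2% of all genes did. Erc2, an active zone protein, rose by 3.11 ± 0.72 and Cadps, which primes dense core vesicles, by 2.95 ± 0.64 at step 5. The 3 that fell, named after their values were seen, were Syngr4 by 1.86 ± 0.21, Rab27a by 1.15 ± 0.19 and Syt9 by 0.64 ± 0.12. Syngr4 had -1.59, -1.23 and -1.63 in step 5 enriched cells, against 0.02, 0.47 and 0.62 in step 5 control cells. Of 22 other scaffold and adhesion genes 11 rose and 0 fell at step 5 (median 0.61), with the synapse organisers Slitrk1 at 2.33 ± 0.43 and Lrrtm1 at 2.14 ± 0.34 among them.

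Promoters were searched for the RE1 element, the site bound by REST, a repressor that keeps many neuronal genes silent outside neurons. The core AGCACCNNGGACAG was sought on both strands with at least 11 of its 12 fixed letters, in RefSeq promoters (GRCm38.p6, 250 bases before to 50 after each start). Of 32851 promoters 116 held it (0.353%), and of the 39 synaptic genes with a promoter entry Syn1 and Syt2 did. The Syn1 match begins 229 bases before the start, at chrX:20921134-20921147, with the free bases in lower case.
Syn1: AGCACCgcGGTCAG
Syn1 had 1.77, 1.2 and 1.44 in step 5 enriched cells, against -0.17, -1.06 and -0.22 in step 5 control cells, and -0.14, 0.95 and 1.42 in step 4 enriched cells, against -0.7, -1 and 0.38 in step 4 control cells. Syt2 was the gene with no signal well above background. The match is a description of these letters and no evidence of binding.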

How the data were processed

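RNA of 12 samples in 4 groups of 3 was measured on 2-colour Agilent mouse arrays, with 100 ng of RNA per sample in Cy5 and mESC RNA in Cy3. Per the file headers the authors read the arrays with Feature Extraction 10.7.3.1 (slides 1 and 3) or 10.5.1.1 (slide 2), which gave mean and background intensity values per spot and a log10 ratio, with probe positions on mm9. The deposited table of log2 ratios equals the software's log ratio within 0.001 for 99.4 to 99.5% of probes per array, lacks 175 values and has column medians of 0.

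From the mean and background intensities, background was corrected with normexp (offset 50) and each array normalized with loess, with 1377 control spots at weight 0 and the 128 to 298 spots per array with outlier flags left out. Spots of a probe were averaged. A probe was tested if the software called its Cy5 signal well above background on each of the 3 arrays of some group, and the brightest tested probe stood for its gene (for mESC comparisons 22449 genes, with the Cy3 signal counted as a group). Of 39429 probes 29670 were named through current symbols (26314), synonyms (3160) or accessions (196), and 9759 were not. limma 3.58.1 in R 4.3.3 fitted all 4 groups together, with Benjamini-Hochberg adjustment over all genes and a threshold of 0.05. The number of arrays, 3 a group, limits the precision. The script was tested on simulated data. A bound ("at least") sets the bright group's mean against the higher, per array, of the dim probe's own signal and the lowest signal among probes well above background, per channel after loess and Aquantile, and is open to dye bias.

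The 53 genes, their classes, the marker lists and the rule for named genes were chosen with earlier results of these data known. That rule gives full values for the 8 genes with the largest difference past the threshold in each group comparison, the largest of each class at step 5, and genes against their class or with disagreeing probes. It names the 3 smallest p-values of the interaction, 5 control genes and the 3 largest of each further list. A few items that it covers are not reported here. Other genes are given with shorter values.

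Replicate numbers pair the samples because the labels give them as slides. Deviations of same-slide samples from their group means correlated at 0.19 to 0.36 between step 5 enriched and step 5 control cells and at 0.13 to 0.64 between step 4 enriched and step 4 control cells. Between the steps they correlated at 0.46 to 0.75 in control cells and at 0.34 to 0.41 in enriched cells. Between step 5 enriched and step 4 control cells they correlated at 0.25 to 0.33, and between step 5 control and step 4 enriched cells at -0.13 to 0.23. The fit with the slide as a block is given beside some results, and its counts are in the closing section. Alternatives covered background correction, source and normalization of the ratio, the filter, the choice of probe, the fit and each array left out.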

Additional observations from a re-analysis of the deposited data

How the results depend on the processing

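The step 5 count of 33 genes higher in enriched than in control cells lay within 1.5 times under every alternative, and at 30 to 34 with 1 array left out. Of all genes 13.6% to 26.7% were higher under the alternatives, and 15.1% to 20.9% with 1 array left out. Of its 35 calls 27 were kept under all alternatives. At step 4 the count of 12 became 23 with median normalization, 21 with array weights, 7 with only the groups of the comparison in the fit, and 5 to 29 with 1 array left out. Of all genes 21.4%, 19.9% and 12.2% rose in the first 3 of these settings, and 7.85% to 16.9% with 1 array left out. For step 5 over step 4 enriched cells the count of 5 became 2 with the scanner software's log ratio or the deposited table, 3 with the Cy5 channel alone or with no filter, 1 with only the groups of the comparison, and 1 to 9 with 1 array left out. Of all genes 2.75% rose with either source of the ratio, 3.41% with the Cy5 channel alone and 2.55% with no filter. That share was 2.59% with only the groups of the comparison and 1.35% to 4.95% with 1 array left out. For step 5 over step 4 control cells the count of 0 became 1 with array weights or without control replicate 2 of both steps, and 0 to 1 with 1 array left out. Of all genes 2.1% and 0.694% were higher in the first 2 of these settings, and 0% to 1.63% with 1 array left out. The interaction stayed at 0 throughout, 0 to 0 with 1 array left out, where at most 0.0493% of all genes were higher under any setting.

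Over mESC, median normalization gave 29 genes in each control group, in place of 19 at step 5 and 15 at step 4. With 1 array left out the counts were 38 to 44 for step 5 enriched, 14 to 20 for step 5 control, 26 to 34 for step 4 enriched and 8 to 16 for step 4 control cells, the last at 8 without its replicate 3. In the main fit 38.3%, 25.6%, 35.4% and 21.4% of all genes were higher in these 4 groups, in that order. The shares of all genes under the alternatives over mESC are not given here, so these counts describe the settings only. Median normalization also moved the median of all genes, from 0.01 to 0.13 for the step 4 comparison. With the replicate block the counts were 21 at step 4 and 10 for step 5 over step 4 enriched cells. Of all genes 19.8% and 6.54% rose in these fits. At step 5 the block gained Syngr1 as a lower call and lost Rab3c, which left 32 genes higher, where 23.3% of all genes were. Over mESC it gave 44 genes for step 5 enriched, 21 for step 5 control, 34 for step 4 enriched and 19 for step 4 control cells. The shares of all genes in this fit over mESC are likewise not given here. For step 5 over step 4 control cells and for the interaction the count was 0 with the block.

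By the mean over the probes of a gene, Pclo turned to 1.15 at step 5 (limma adjusted p = 0.00448) and 0.78 at step 4 (adjusted p = 0.0357), and Shank1 to 0 at step 5, since their other probes differ from the brightest. Leaving out probes that share bases with other genes was chosen after seeing the data. Causes of the other shifts were not tested. The Cy5 channel alone gives no value over mESC, and the interaction uses all 4 groups, so that these settings have no value there. With 1 array left out, its group's spread is taken from the others. Dim probes limit Syt2 and Syt7 and the ratios to mESC of 6 genes.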
